A study of Homo sapiens with 6 samples.

Results

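The miR-17/92 cluster is a group of 6 microRNA hairpins that are cut from a single primary transcript, the long non-coding RNA MIR17HG. A hairpin yields 2 arms, named 5p and 3p after the strand end they come from. The more abundant arm is usually the one that is loaded into Argonaute and pairs with target messenger RNAs through its seed, bases 2 to 8 from its 5′ end. The cluster is activated by MYC and is best known as a proliferative and anti-apoptotic microRNA cluster in B cells and leukemia, and miR-17-5p and miR-20a-5p are described to target RUNX1 messenger RNA itself in the monocytic lineage. The 10 mature arms described here were taken by name from the count files, and all 10 were found among 2596 microRNA entries and 28846 small RNA entries. They are hsa-miR-17-5p, hsa-miR-17-3p, hsa-miR-18a-5p, hsa-miR-18a-3p, hsa-miR-19a-3p, hsa-miR-20a-5p, hsa-miR-20a-3p, hsa-miR-19b-3p, hsa-miR-92a-1-5p and hsa-miR-92a-3p, written without the species prefix from here on.

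The question of the comparison was which microRNAs respond to RUNX1, a hematopoietic transcription factor, in K562, a leukemia cell line with erythroid features. The RUNX1 samples carried a lentivirus (SIEW) for human RUNX1 and GFP, the control samples the same vector with GFP alone, and RNA was taken on day 10 of culture. Each group held 3 separately transduced cultures with 1 small RNA library each. RUNX1 messenger RNA is not measured by such libraries, so the over-expression could not be checked here.

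Total counts ranged from 1618248 in control replicate 1 to 15245007 in RUNX1 replicate 1. CPM stands for counts scaled to a common library size with edgeR's TMM factors. These are bulk libraries, in which fewer cells with a microRNA and less of it per cell cannot be told apart. The 4 erythroid markers were all detected and, by the rule given below, all altered, as were 56% of the tested microRNAs. miR-451a stood at 2903 ± 232 CPM without and 1624 ± 283 CPM with RUNX1 (SD, n = 3 per group), a log2 change of -0.84. On the same scale miR-486-5p changed by -0.80, miR-144-5p by -0.58 and miR-144-3p by 1.02. For the last of these arms, q-RT-PCR by the authors gave a fall, opposite in direction to their sequencing. No arm of the cluster was measured that way. Of 4 markers of other lineages, miR-122-5p, miR-124-3p and miR-133a-3p did not pass the filter on low counts, and miR-124-3p, typical of neurons, had 0 counts in all 6 libraries, which allows a share of up to 0.000185% in the smallest library. The epithelial miR-200c-3p had 26 to 351 counts per library and rose by 0.97 on the log2 scale. The part of these shifts in the results on the cluster was not tested. RUNX1 replicate 3 stood apart from the other RUNX1 samples. The chi-square per degree of freedom between libraries was 67.4 for RUNX1 replicates 1 and 2, 545 for 1 and 3, and 372 for 2 and 3, and 11.2 to 25.9 among controls. The names of the libraries of RUNX1 replicates 1 and 2 carry the same number, 2, and control and RUNX1 libraries carry different letters. What these mark is not stated, so whether replicates 1 and 2, though separately transduced, share a preparation is not known. The groups cannot be told apart from what the letters mark. The main values that rest on RUNX1 replicate 3 are also given without it.

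In the RefSeq annotation of GRCh38.p14, the 6 hairpins lie within 787 bases on the plus strand of chromosome 13, in the order MIR17 (chr13:91350605-91350688), MIR18A (chr13:91350751-91350821), MIR19A (chr13:91350891-91350972), MIR20A (chr13:91351065-91351135), MIR19B1 (chr13:91351192-91351278) and MIR92A1 (chr13:91351314-91351391). MIR17HG spans chr13:91347820-91354579 in GENCODE 29, and each hairpin lies in an exon of 2 of its 3 transcripts and in an intron of the third. The arms are shown with the seed in capitals, because the seed divides the cluster into 4 target families. All 10 names matched RefSeq, and the sequences read 5′ to 3′.
miR-17-5p: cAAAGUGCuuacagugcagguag
miR-20a-5p: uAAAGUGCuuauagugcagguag
miR-18a-5p: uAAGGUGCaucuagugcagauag
miR-19a-3p: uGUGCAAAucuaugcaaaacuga
miR-19b-3p: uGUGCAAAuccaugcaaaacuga
miR-92a-3p: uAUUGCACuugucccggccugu
miR-17-3p: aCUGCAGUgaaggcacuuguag
miR-18a-3p: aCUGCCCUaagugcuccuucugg
miR-20a-3p: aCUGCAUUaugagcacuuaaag
miR-92a-1-5p: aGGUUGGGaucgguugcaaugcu

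miR-17-5p and miR-20a-5p share the seed AAAGUGC and differ at 2 bases, C1U and C12U, counted from 1 at the 5′ end of miR-17-5p. miR-18a-5p carries the seed AAGGUGC. miR-19a-3p and miR-19b-3p share the seed GUGCAAA and differ at U11C. miR-92a-3p has the seed AUUGCAC. The last 4 sequences are the less abundant partner arms, which have seeds of their own.

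Upon RUNX1 over-expression the mature arms of this one transcript did not move together. miR-19a-3p was up-regulated 1.78-fold, 4 of the 10 arms were down-regulated (miR-92a-1-5p, miR-18a-3p, miR-17-3p and miR-20a-3p), and 5 did not pass the thresholds. An arm was called altered, by the study's rule, at a P-value below 0.05 with a log2 change of 0.5 or more in size, here from edgeR's quasi-likelihood test over all small RNAs that passed its filter on low counts. All 10 arms passed that filter. By this rule 57.6% of all tested small RNAs were altered, 28% up-regulated and 29.6% down-regulated, and of the tested microRNAs 56% were altered, 33.4% up-regulated and 22.6% down-regulated. The 5 altered arms are thus close to the background. The same 5 were altered when the P-value was adjusted (background 54.6%). Of them 1 also had a log2 change of at least 1 (38.4%). An adjusted P-value below 0.05 whatever the fold was reached by 7 arms (58.1%). Of these, miR-17-5p, miR-17-3p, miR-20a-3p, miR-19b-3p and miR-19a-3p did not reach it in every other fit. miR-19a-3p missed it with scaling to library size alone (edgeR adjusted p = 0.374). The median log2 fold change was -0.40 over the 10 arms, -0.06 over all tested small RNAs and 0.11 over the tested microRNAs. In 6 arms all RUNX1 samples lay below all control samples and in 1 above them, while 64.8% of all tested small RNAs showed no overlap in either direction and 33.5% had the RUNX1 samples below.

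The abundant arms with the miR-17 seed, which act on cell cycle regulators such as E2F1 and CDKN1A, stayed within the fold-change threshold. For miR-17-5p the control libraries held 10971, 10818 and 11974 CPM (replicates 1, 2 and 3, an order kept throughout), and the RUNX1 libraries 7808, 7966 and 10388 CPM. All RUNX1 values were below the controls, with replicate 3 close to them. Fold changes are given on the log2 scale with ± their standard error, and that of miR-17-5p was -0.37 ± 0.14 (edgeR, Benjamini-Hochberg adjusted p = 0.0481, and 0.000135 to 0.402 over the other fits). For miR-20a-5p the control libraries held 17831, 16907 and 20873 CPM, the RUNX1 libraries 14888, 13121 and 18425. These groups overlapped, at a log2 difference of -0.26 (95% interval -0.61 to 0.09). miR-18a-5p, described to act on the matrix protein gene CTGF, stood at 2311, 2033 and 2393 CPM without and 1879, 2142 and 2145 CPM with RUNX1. Here, too, the groups overlapped, at a log2 difference of -0.13 (95% interval -0.41 to 0.15).

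miR-92a-3p was the most abundant member, ranked 9 of 2596 microRNA entries in control and 11 in RUNX1 samples. The control libraries held 25832, 27568 and 27222 CPM, the RUNX1 libraries 17550, 17922 and 27057. RUNX1 replicate 3 lay within the control range and the other RUNX1 samples below it. The log2 difference was -0.37 (95% interval -0.76 to 0.02, edgeR adjusted p = 0.0969). Without RUNX1 replicate 3 it was -0.51 and past the thresholds (edgeR adjusted p = 8.4e-06). In that fit 612 of 969 small RNAs were altered. Its RUNX1 group holds replicates 1 and 2 only, and whether these share a preparation is not known. The P-value may thus not measure the spread between separate cultures.

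miR-19a-3p had a higher mean in RUNX1 than in control samples, unlike the other 9 arms. Its control libraries held 3032, 2661 and 3080 CPM, its RUNX1 libraries 4698, 5802 and 5105. The groups did not overlap, and RUNX1 replicate 3 was the middle one of its group. The log2 fold change was 0.83 ± 0.13 (edgeR adjusted p = 0.00053).

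miR-19b-3p carries the same seed. It held 69.8, 69.0 and 73.2 CPM in the control libraries, against 48.8, 48.2 and 61.0 with RUNX1. All RUNX1 samples were below the controls, at -0.43 ± 0.14 on the log2 scale (edgeR adjusted p = 0.0283, and 0.000667 to 0.305 over the other fits), short of the fold-change threshold. Its mature sequence is identical in MIR19B1 and in MIR19B2 of a paralog cluster on the X chromosome. The 160 microRNA entries whose mature sequence lies at 2 or more places had a median of 0 counts over the 6 libraries together. The 2102 entries at 1 place had a median of 3. How reads with several matches were counted is not given in the sources used here. The level of miR-19b-3p was therefore not compared with that of miR-19a-3p.

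The 4 less abundant arms of miR-17, miR-18a, miR-20a and miR-92a-1 were all down-regulated. For miR-92a-1-5p the control libraries held 768, 763 and 735 CPM, the RUNX1 libraries 124, 136 and 388. The RUNX1 samples were all below the controls, with replicate 3 between the controls and the others. The log2 fold change was -1.81 ± 0.39 (edgeR adjusted p = 0.00339), a level 3.50-fold lower, and it was -2.45 without RUNX1 replicate 3. For miR-18a-3p the control libraries held 469, 504 and 498 CPM, the RUNX1 libraries 181, 192 and 384. Replicate 3 was again the nearest to the controls. The log2 fold change was -0.96 ± 0.27 (edgeR adjusted p = 0.0126), and -1.31 without that replicate.

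The falls of miR-17-3p and miR-20a-3p were smaller. miR-17-3p stood at 1376, 1244 and 1293 CPM without and 776, 802 and 1051 CPM with RUNX1, a change of -0.57 ± 0.15 (edgeR adjusted p = 0.00809). miR-20a-3p stood at 139, 130 and 137 CPM without and 86.1, 94.9 and 98.8 CPM with RUNX1, a change of -0.54 ± 0.12 (edgeR adjusted p = 0.00472). In neither arm did the groups overlap, but both changes lie near the fold-change threshold. Without RUNX1 replicate 1 both missed it, miR-17-3p with -0.47 and miR-20a-3p with -0.46, which left 2 down-regulated arms. Without RUNX1 replicate 2 miR-17-3p missed it with -0.47, and miR-20a-3p missed it narrowly, with -0.50, without control replicate 1 or RUNX1 replicate 3.

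**Figure D1:**
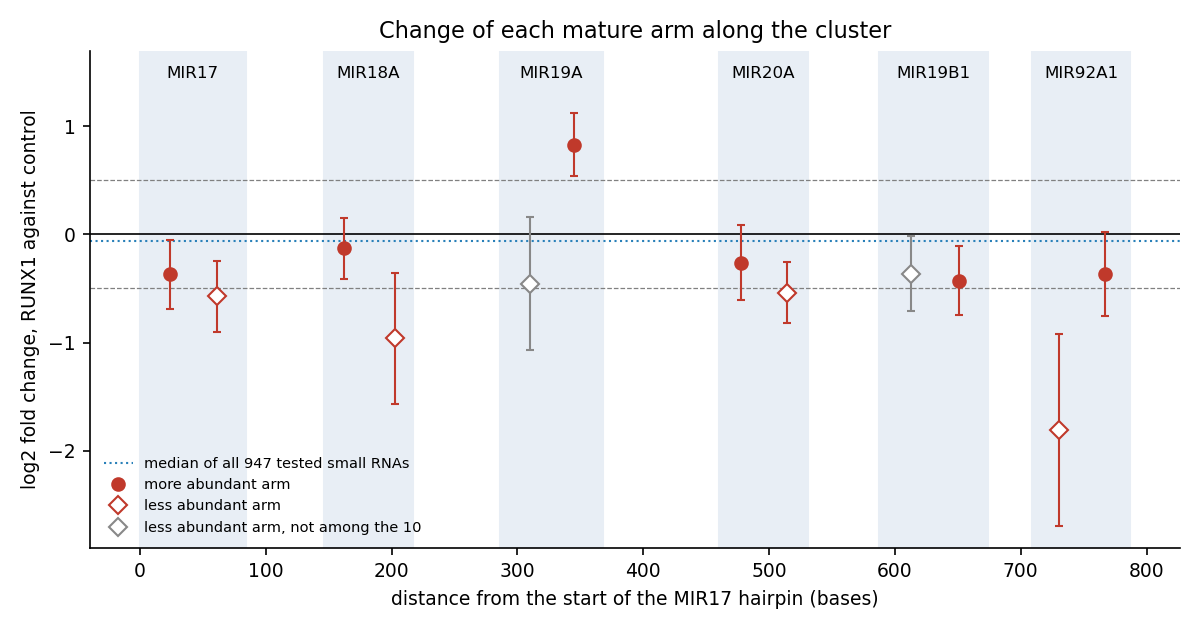
Log2 fold change of each arm with its 95% interval (y axis) against its distance in bases from the start of MIR17 (x axis), for the 10 arms (red, filled for the more abundant arm) and the partner arms miR-19a-5p and miR-19b-1-5p (grey), with the hairpins shaded, the 0.5 thresholds dashed and the median of all tested small RNAs dotted. miR-19a-3p, with 0.83, stands above arms of the neighbouring hairpins, and miR-92a-1-5p, with -1.81, below its own partner arm.

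The partner arms of a hairpin are cut from one precursor, and the ratio of their counts within a library needs no scaling between libraries. miR-92a-3p and miR-19b-3p are encoded at 2 places each, so that their counts may also hold reads from the second hairpin. The log2 ratio of miR-92a-3p to miR-92a-1-5p was 5.07, 5.18 and 5.21 in the control libraries, and 7.14, 7.04 and 6.12 in the RUNX1 libraries. The means differed by 1.62, from 5.15 ± 0.07 to 6.77 ± 0.56 (SD, n = 3 per group; exact two-sided permutation test, p = 0.1, the smallest that 3 samples against 3 allow). On a linear scale these means correspond to 35.6 and 109 reads of miR-92a-3p per read of miR-92a-1-5p, and without RUNX1 replicate 3 the log2 difference was 1.94. For miR-18a-5p to miR-18a-3p the control libraries gave 2.30, 2.01 and 2.26, the RUNX1 libraries 3.38, 3.48 and 2.48. The groups did not overlap, at a difference of 0.92, and of 1.24 without RUNX1 replicate 3. For miR-17-5p to miR-17-3p the mean was 3.11 ± 0.11 without and 3.32 ± 0.01 with RUNX1, again without overlap but at a difference of 0.21 only. For miR-20a-5p to miR-20a-3p the groups overlapped, at a difference of 0.27 (exact permutation test, p = 0.2).

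The partner arms miR-19a-5p and miR-19b-1-5p are not among the 10, and ratios with them were added after the values had been seen. miR-19a-5p stood at 110, 94.8 and 88.8 CPM without and 47.3, 60.0 and 107 CPM with RUNX1, and its log2 difference of -0.46 did not pass the test (edgeR adjusted p = 0.179). The log2 ratio of miR-19a-3p to miR-19a-5p was 1.37 higher with RUNX1, and 1.71 higher without RUNX1 replicate 3, with no overlap, while that of miR-19b-3p to miR-19b-1-5p differed by -0.09, with overlap. A ratio of miR-19a-3p to miR-20a-5p of the next hairpin was added as well. Its log2 value was -2.66 ± 0.10 without and -1.56 ± 0.35 with RUNX1 (SD, n = 3 per group; exact permutation test, p = 0.1). Of the 14 ratios computed, paralog pairs and the 3 added ones included, 11 had no overlap, against 64.8% of all small RNAs for levels, and no background was computed for ratios. The Benjamini-Hochberg adjusted values of the exact permutation tests ranged from 0.127 to 0.6.

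A lower fold change of the less abundant arm was frequent in these libraries. Of 144 microRNAs with both arms tested, it was the lower one in 94 (65.3%), with a median log2 difference of -0.23 and a lower quartile of -0.91.

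**Figure D2:**
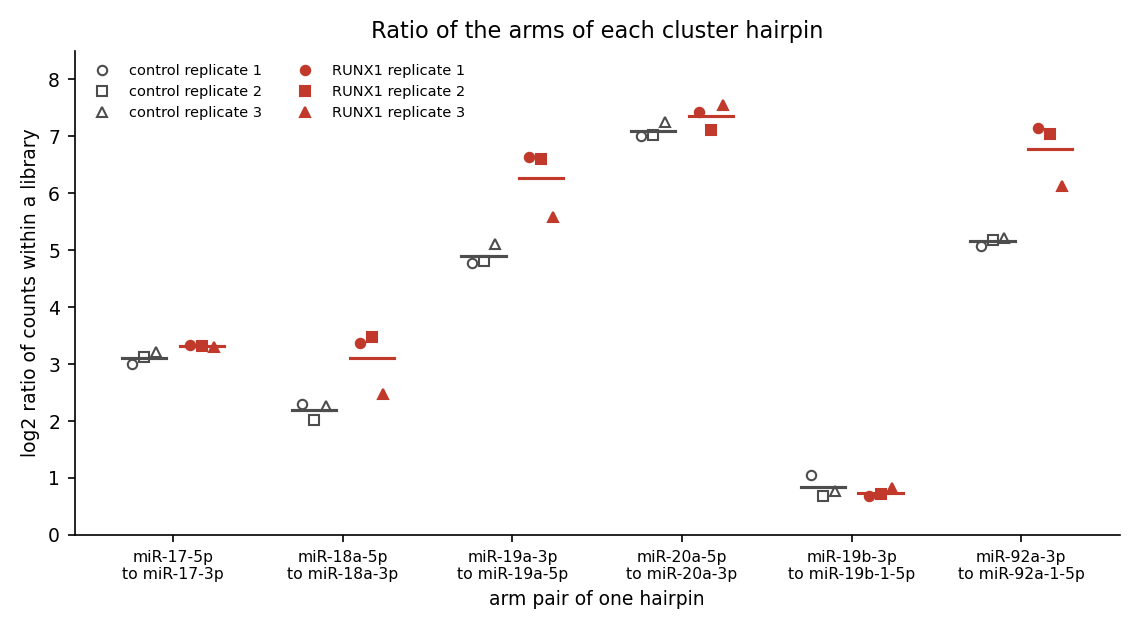
Log2 ratio of counts between the arms of each of the 6 hairpins, by library (open symbols control, filled symbols RUNX1, lines the group means). The RUNX1 samples lie above the controls for miR-17 (by a mean of 0.21 only), miR-18a, miR-19a and miR-92a, where replicate 3 (triangles) is the lowest RUNX1 sample. The groups overlap for miR-20a and miR-19b.

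The make-up of the cluster was taken as the share of each arm in the summed counts of the 10 arms, again without scaling between libraries. miR-19a-3p took 4.83%, 4.24% and 4.51% of these counts in the control libraries and 9.78%, 12.0% and 7.84% in the RUNX1 libraries. The groups did not overlap. The difference was 5.36 percentage points, and 8.24 when miR-92a-3p and miR-19b-3p, with 2 gene copies each, were left out of the sum. The share of miR-92a-3p was 41.7% ± 2.10 without and 38.4% ± 2.74 with RUNX1, and that of miR-20a-5p was 28.6% ± 1.81 and 28.8% ± 1.95 (SD, n = 3 per group). The less abundant arms of miR-17, miR-18a, miR-20a and miR-92a-1 together took 4.17% ± 0.24 without and 2.64% ± 0.28 with RUNX1.

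Among all microRNA counts the 10 arms took 9.89%, 10.1% and 10.2% in the control libraries and 3.95%, 3.88% and 6.29% in the RUNX1 libraries. Such a share also depends on how many counts other microRNAs take. After TMM scaling the summed level of the 10 arms was 64592 ± 3193 CPM without and 53790 ± 9799 CPM with RUNX1 (SD, n = 3 per group), and RUNX1 replicate 3, at 65104 CPM, lay within the control range.

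How far the arms moved depended on the scaling, while the sign of each did not. With library size alone in place of TMM the median log2 fold change of all tested small RNAs was -0.76, and 55% of them were down-regulated and 12.7% up-regulated. Of the 10 arms, 9 were then down-regulated, and miR-19a-3p, at 0.13, was not altered. Relative to the median of all tested small RNAs miR-19a-3p stood at 0.89 under both scalings. This holds by construction, because a change of scaling shifts all small RNAs by nearly the same amount. Scaling on the microRNA entries alone gave 7 down-regulated arms and 0.64 for miR-19a-3p. With DESeq2 the altered arms were miR-92a-1-5p (-1.73), miR-18a-3p (-0.88) and miR-19a-3p (0.94).

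**Figure D3:**
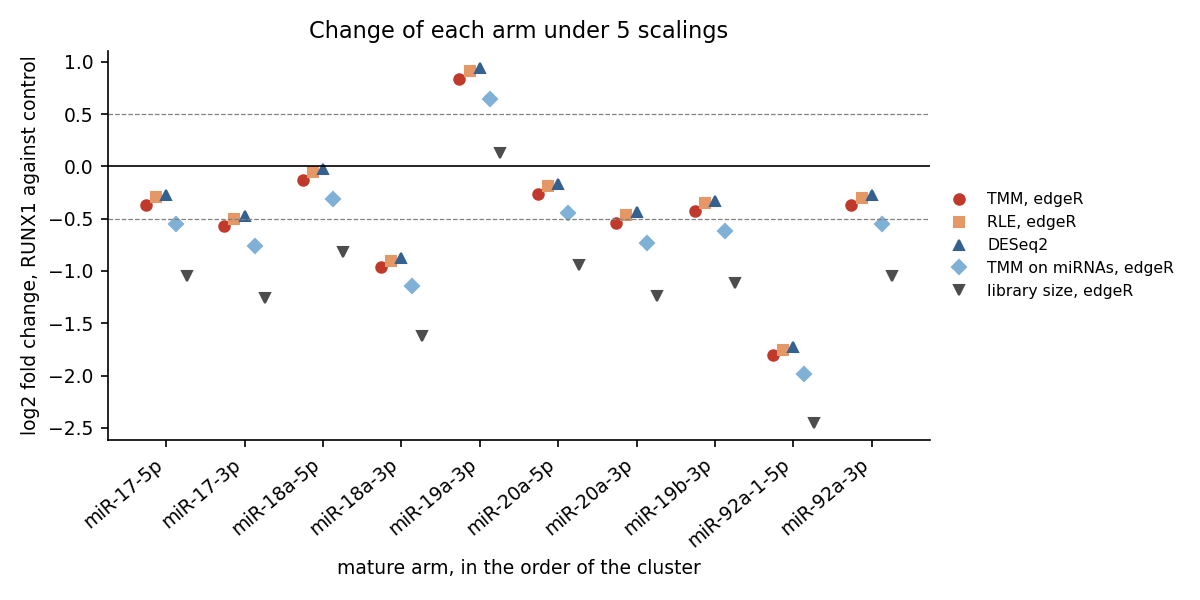
Log2 fold change of each arm (y axis) under 5 scalings (symbols), with the 0.5 thresholds dashed. miR-19a-3p is the highest and miR-92a-1-5p the lowest arm under all 5, and scaling to library size alone shifts all 10 downwards.

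The human genome holds 2 paralog clusters that make microRNAs with the same seeds, one from MIR106A to MIR363 on the X chromosome and one from MIR106B to MIR25 within the MCM7 gene. Their arms nearest in sequence to the members are shown, with the seed in capitals.
miR-106a-5p: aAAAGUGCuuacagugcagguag
miR-20b-5p: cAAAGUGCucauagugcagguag
miR-18b-5p: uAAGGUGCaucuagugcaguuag
miR-363-3p: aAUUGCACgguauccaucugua
miR-93-5p: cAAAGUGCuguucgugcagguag
miR-25-3p: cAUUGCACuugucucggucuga

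With positions counted from 1 at the 5′ end of the miR-17/92 member, miR-106a-5p differs from miR-17-5p by C1A, miR-20b-5p from miR-20a-5p by U1C and U10C, and miR-18b-5p from miR-18a-5p by A20U. These arms of the X-chromosomal paralog were rare. Of its 10 arms outside the members, 4 passed the filter, of which 3 were up-regulated (28% of all tested small RNAs and 33.4% of tested microRNAs) and 0 down-regulated. The control reads of miR-363-3p (1, 6 and 5) and miR-18b-5p (5, 7 and 23) alone would not have passed it. Arms that pass through their RUNX1 reads can hardly come out lower, so no conclusion is drawn from this count. miR-106a-5p had 9, 40 and 44 reads without and 61, 52 and 51 with RUNX1, next to 22940 to 90929 reads of miR-17-5p. Its log2 difference of 0.42 did not pass the test (95% interval -0.15 to 0.99). miR-20b-5p had 5, 21 and 16 reads without and 87, 41 and 39 with RUNX1, and miR-18b-5p had 5, 7 and 23 against 77, 39 and 27. Both rose, by 1.48 and 1.49 on the log2 scale. Near-identical arms may share reads, and with each summed with its miR-17/92 counterpart before the fit, 4 arms were still down-regulated and 1 up-regulated.

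miR-92a-3p and miR-19b-3p are also encoded by the X-chromosomal paralog. The arms that only that cluster can make, miR-92a-2-5p and miR-19b-2-5p, had 1 count and 0 counts over the 6 libraries together. miR-92a-1-5p in contrast had 850 to 6148 counts per library, and miR-19b-1-5p 70 to 348. miR-363-3p, which shares the miR-92 seed, had 1, 6 and 5 reads without and 397, 222 and 160 with RUNX1, a fitted log2 change of 5.50 ± 0.31 that rests on 1 to 6 control counts per library. The log2 ratio of miR-92a-3p to miR-363-3p fell from 15.1 ± 0.07 to 9.38 ± 0.69 (SD, n = 3 per group; exact permutation test, p = 0.1), with no overlap.

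In the MCM7 paralog the abundant arms stayed within the fold-change threshold. miR-93-5p stood at 4483, 4345 and 4601 CPM without and 4247, 4284 and 4831 CPM with RUNX1, a log2 difference of -0.01 (95% interval -0.26 to 0.25). The log2 ratio of miR-20a-5p to miR-93-5p was 1.99, 1.96 and 2.18 in the control libraries and 1.81, 1.61 and 1.93 in the RUNX1 libraries. These groups did not overlap, at a difference of -0.26, nor did those of miR-17-5p to miR-106b-5p, at -0.71 (exact permutation test, p = 0.1 for both). For miR-92a-3p to miR-25-3p the groups overlapped, at a difference of -0.27 (exact permutation test, p = 0.3). Of the 6 arms of that cluster 1 was altered, against 57.6% of all tested small RNAs and 56% of tested microRNAs. In 3 of the 6 the levels of the groups did not overlap (64.8% of all tested small RNAs). The altered arm was miR-25-5p, at 399, 404 and 381 CPM without and 66.5, 76.6 and 256 CPM with RUNX1. It is the less abundant arm opposite miR-25-3p, as miR-92a-1-5p is opposite miR-92a-3p. Its log2 change was -1.57 ± 0.45. RUNX1 replicates 1 and 2 differed from the controls by -2.47 on the log2 scale, and replicate 3 by -0.62.

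Over the 6 arms with the miR-17 seed in the 3 clusters, miR-17-5p and miR-20a-5p together supplied 84.6%, 84.6% and 86.0% of the counts in the control libraries and 81.5%, 79.8% and 83.5% in the RUNX1 libraries. The groups did not overlap, and the share of miR-93-5p went from a mean of 12.8% to 15.2%. Of 5 further microRNAs with a miR-17 or miR-92 seed outside these clusters, 2 passed the filter. miR-32-5p rose by 0.93 on the log2 scale, and miR-92b-3p, at 0.15, did not pass the test.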

How the data were processed

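Small RNA libraries of 6 K562 samples were made by the authors from 1000 ng of total RNA each (TruSeq Small RNA chemistry, HiSeq2000, single reads), and reads were demultiplexed with CASAVA 1.8.2. The study names the OASIS platform for its small RNA analysis, and hg19 is the build in the submitters' processing notes. The deposited values are whole-number counts per small RNA without normalization. The aligner and the treatment of reads that match several loci are not given in the sources used here. The 5 summary entries at the end of each file were 0 and left out.

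Later steps used R 4.3.3 (edgeR 4.0.16, DESeq2 1.42.0) and Python (scipy 1.17.1). Low rows were removed by filterByExpr, with 10 as minimum count and 15 as minimum total. TMM factors and edgeR's quasi-likelihood fit followed, with condition as the only term. P-values were adjusted by Benjamini-Hochberg over all small RNAs tested. Groups and replicate numbers are those of the sample titles, and replicates differed by more than sampling noise. The TMM factors were 1.23 to 1.31 in control and 0.735 to 0.866 in RUNX1 samples. TMM assumes that most small RNAs do not change, and 57.6% of those tested were altered. Ratios used 0.5 added counts. A pair of planned ratios, to miR-92a-2-5p and miR-19b-2-5p, was not computed because the divisor had at most 1 count. The floor was 3 counts, and this limit covers counting error only. The fits were tested on simulated data. The members, lists and pairs were chosen with earlier results of these data known. Named are all members, the paralog and same-seed arms, and the 5 microRNAs whose profile was most like that of the summed members. Alternatives were other scalings, filters, thresholds, DESeq2, the replicate number as a block, summed paralogs, another added count and leaving out each library.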

Additional observations from a re-analysis of the deposited data

How the results depend on the processing

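The 4 down-regulated arms became 2 with DESeq2, 2 without a filter on low counts, 9 with library size only, 7 with scaling on microRNAs only and 1 when the adjusted P-value was used with a log2 threshold of 1. With a library left out the number ranged from 2 to 4. The 1 up-regulated arm became 0 with library size only and 0 with that threshold. The cause was not tested, beyond the shift that scaling brings by construction. miR-92a-1-5p and miR-18a-3p were altered in all 15 other fits and miR-19a-3p in 14. The replicate number as a block left 4 down-regulated and 1 up-regulated arm, and the altered small RNAs went from 545 to 546. Whether the numbers pair the samples is not stated. The deviations of same-numbered samples from their group means had correlations of -0.0207, -0.0723 and 0.0342. With 3 samples per group such values cannot exclude a shared batch.

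The share of the 10 arms in all microRNA counts was 5.35 percentage points lower in RUNX1 than in control samples, a difference of -5.35, which became -2.99 without miR-92a-3p and miR-19b-3p and ranged from -6.14 to -4.94 with a library left out. The small difference of miR-20a-5p's share, 0.191 points, became -2.23 without those arms, -0.648 without control replicate 2 and ranged from -0.889 to 1.15 with a library left out. Without those arms the difference in share became 8.24 points for miR-19a-3p (5.36 with them), -3.49 for miR-17-5p (-1.18), -0.82 for miR-17-3p (-0.39), -0.56 for miR-18a-3p (-0.31), -0.076 for miR-20a-3p (-0.034) and -1.39 for miR-92a-1-5p (-0.79). The difference of the log2 ratio of miR-19b-3p to miR-19b-1-5p, -0.09, ranged from -0.17 to 0.0151. Depth limits miR-106a-5p, miR-20b-5p and miR-18b-5p, with 5 to 87 counts per library.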

Other observations

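The microRNAs outside the cluster whose level followed that of the summed 10 arms most closely were miR-378a-5p, miR-4326, miR-339-3p, miR-3157-5p and miR-32-3p. Likeness was measured as the root mean square difference of centred log2 CPM over the 6 libraries, among 578 tested microRNAs, and ranged from 0.0562 for miR-378a-5p to 0.101 for miR-32-3p. None of these 5 was altered, with log2 fold changes from -0.38 to -0.18. miR-378a-5p had 155, 169 and 166 CPM in control and 118, 123 and 156 CPM in RUNX1 samples, with replicate 3 nearest to the controls. As the 5 were chosen for their likeness to the sum over the same 6 libraries, these values follow from the choice. Among the 10 arms themselves the same measure was 0.0530 for miR-17-5p and 0.0928 for miR-92a-3p, but 0.584 for miR-19a-3p and 0.950 for miR-92a-1-5p. The sum is made of these same arms, so the likeness of its abundant arms holds in part by construction. In control samples miR-92a-3p took a mean of 41.7% of the summed counts and miR-17-5p 17.4%, but miR-19a-3p 4.53% and miR-92a-1-5p 1.17%.

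miR-92a-3p was an exception among microRNAs with several gene copies. Of 160 entries with a mature sequence at 2 or more places in RefSeq, it had 982584 counts over the 6 libraries, the next largest, miR-128-3p, had 4495, and miR-19b-3p, which ranked 3, had 2539. Only 9.38% of these entries passed the filter, against 24.0% of the 2102 entries with 1 place. miR-16-5p, an abundant microRNA in blood cells with 2 gene copies, had 305 counts in all. miR-128-3p and miR-16-5p were chosen after their values were seen. In the hairpins, the base after miR-92a-3p is U in MIR92A1 and G in MIR92A2, and the base after miR-19b-3p is C in MIR19B1 and U in MIR19B2. Whether this bears on the counts was not tested.

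Of the 10 arms, 9 were higher in RUNX1 replicate 3 than the mean of RUNX1 replicates 1 and 2, against 48.8% of all tested small RNAs, and miR-92a-1-5p was higher by 2.99-fold.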
